A study of Mus musculus with 56 samples.

Results

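Interferon-stimulated genes are read out here as a set of 36 mouse genes, chosen by name and matched by Entrez identifier to the deposited expression table of 20314 genes, which held all 36. They were followed in 56 RNA-seq samples of cells grown from mammary tumors, in order to see the interferon state of each cell line and how it moved when the cells were given TGFβ or Wnt3a. A gene was tested where it reached 1 CPM or more (reads counted per gene, scaled to the size of the library) in 2 or more samples, which kept 13754 genes and all 36 members. The filter was passed narrowly by some members, since Ifit3b reached 1 CPM in 9 samples and Oas2 in 17, whereas 12 members did so in all 56.

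The cells came from tumors of MMTV-PyMT mice (FVB/N), in which a mammary tumor virus promoter drives the polyoma middle T oncogene in mammary epithelium, so every group carries that transgene. The 7 genotypes concern the β-catenin gene. In fl/fl cells both alleles are floxed, which the study treats as wild type. The D164A/fl, ΔC/fl and dm/fl cells carry 1 mutant allele over a floxed allele, and the D164A/-, ΔC/- and dm/- cells carry the same mutant allele over a deleted one. D164A is a point mutation that prevents Bcl9 and Bcl9L from binding β-catenin. What the ΔC and dm alleles change is not described in the labels. Each genotype gave 8 samples in 2 experiments. In one, cells were left untreated or given 100 ng/ml Wnt3a for 3 days, and in the other they were left untreated or given 2 ng/ml TGFβ for 4 days, with 2 samples per condition that the study calls biological duplicates. The donors were females 12 weeks old. Cells with a mutant and a floxed allele were exposed to an adenovirus carrying Cre and GFP, which removes the floxed allele, or to a control virus with GFP and no Cre, and were then sorted for GFP. The paper's reporter assay used 2 independent fl/fl lines. Neither the number of lines behind the samples of each genotype nor any virus exposure of the fl/fl cells is given in the sources used here. Genotype and cell line therefore cannot be told apart. The error given below is the spread between duplicates, which may be cultures of 1 line or of separate lines. It cannot be taken as the spread between animals.

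Interferons are secreted proteins made when a cell detects viral or misplaced nucleic acid. Type I interferons bind a surface receptor whose kinases phosphorylate Stat2, which takes part with Irf9 in a complex that binds a short DNA motif, the interferon-stimulated response element (ISRE), in front of its target genes. The targets include effectors that block viral RNA (the Ifit and Oas proteins, Mx1 and Mx2, Rsad2), sensors and factors that amplify the signal (Ifih1, Dhx58, Irf7), brakes (Usp18, which removes Isg15 from proteins and quiets the receptor) and parts of the antigen presentation machinery (Psmb8, Psmb9, Tap1). Many tumor cells hold some of these genes active without added interferon.

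The sequences around the start sites were searched for short motifs, which only part of the members held. RefSeq promoters (GRCm38.p6, 250 bases before to 50 after the start) were at hand for 26 of the 36 members. The letters GAAANNGAAA, or TTTCNNTTTC when read from the other strand, occurred in 10 of the 26 (38.5%), against 3.7% of 10829 tested genes and 3.4% of 32851 promoters. TTCNNNGAA, the core of the gamma-activated site, occurred in 5 of 26 members (19.2%) and in 8.3% of the tested genes. The 10 members with the first motif were Isg15, Ifit1, Ifit3, Ifit3b, Rsad2, Bst2, Stat2, Oas1a, Oas3 and Ifih1. In Ifih1 the match begins 32 bases after the start. A match is a run of letters, not a measured binding site, and its lack in one window says nothing of the factor. The 5 stretches that follow hold the 250 bases before the start of members described below, with each match to the first motif in capitals, and none of the stretches overlaps an annotated exon (GENCODE vM21).
Isg15, chr4:156200819-156201068, minus strand: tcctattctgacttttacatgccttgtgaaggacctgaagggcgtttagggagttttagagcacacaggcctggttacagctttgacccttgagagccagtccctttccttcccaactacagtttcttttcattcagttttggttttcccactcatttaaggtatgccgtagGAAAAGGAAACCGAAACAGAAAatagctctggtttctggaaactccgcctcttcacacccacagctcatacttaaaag
Ifit1, chr19:34640639-34640888, plus strand: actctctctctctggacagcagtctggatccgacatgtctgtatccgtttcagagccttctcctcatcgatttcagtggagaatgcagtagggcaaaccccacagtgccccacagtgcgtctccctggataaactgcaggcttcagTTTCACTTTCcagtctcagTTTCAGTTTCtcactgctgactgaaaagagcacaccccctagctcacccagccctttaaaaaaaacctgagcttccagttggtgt
Rsad2, chr12:26456453-26456702, minus strand: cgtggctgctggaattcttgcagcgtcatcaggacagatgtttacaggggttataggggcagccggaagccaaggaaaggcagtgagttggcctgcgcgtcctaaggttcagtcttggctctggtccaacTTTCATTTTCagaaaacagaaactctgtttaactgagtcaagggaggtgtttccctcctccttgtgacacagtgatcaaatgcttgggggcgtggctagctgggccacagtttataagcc
Bst2, chr8:71537473-71537722, minus strand: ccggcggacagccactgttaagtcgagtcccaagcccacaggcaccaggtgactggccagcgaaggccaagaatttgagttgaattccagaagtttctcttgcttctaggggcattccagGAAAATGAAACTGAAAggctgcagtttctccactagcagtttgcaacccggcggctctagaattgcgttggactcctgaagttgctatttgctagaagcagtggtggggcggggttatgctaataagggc
Stat2, chr10:128270248-128270497, plus strand: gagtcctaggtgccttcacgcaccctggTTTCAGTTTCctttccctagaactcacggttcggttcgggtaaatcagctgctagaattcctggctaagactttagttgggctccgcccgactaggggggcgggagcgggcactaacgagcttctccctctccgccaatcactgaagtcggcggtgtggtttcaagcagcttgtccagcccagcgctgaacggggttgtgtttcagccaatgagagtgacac

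The motif runs are stacked in Isg15, where 3 overlapping matches begin 78, 72 and 66 bases before the start, and in Bst2, where 2 overlapping matches begin 130 and 124 bases before it. Ifit1 has 2 separate matches, 104 and 85 bases before its start. Psmb9 and Tap1, an immunoproteasome subunit and a peptide transporter subunit, are read away from each other from starts 0.226 kb apart, and the stretch between them is shown because both genes are described below. It held neither motif.
Psmb9 to Tap1, chr17:34187331-34187555, plus strand: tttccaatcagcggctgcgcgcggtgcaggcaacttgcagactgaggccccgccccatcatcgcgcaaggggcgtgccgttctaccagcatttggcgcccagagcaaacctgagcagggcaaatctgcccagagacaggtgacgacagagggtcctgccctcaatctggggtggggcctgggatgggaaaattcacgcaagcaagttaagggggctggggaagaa

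The libraries held 22.4 to 33.7 M reads (median 26.8 M), so that 3 reads corresponded to 0.092 to 0.146 CPM, and a CPM below that is close to the counting floor. Epcam, Krt8, Krt18, Krt14 and Cdh1, which mark epithelium, were above 1 CPM in all 56 samples. Krt5, the remaining epithelial marker listed, reached 1 CPM in 27 samples and was at 0 in 3. It stayed below 1 CPM in every ΔC/fl and ΔC/- sample and reached 974 CPM in D164A/fl cells. Of the other markers, Ptprc, Adgre1 and Cd3e of leukocytes did not pass 0.208 CPM in any sample and Thy1 was at 0 in 50, whereas Csf1r reached 530 CPM and Pdgfrb 494 CPM in some. Mmp9, which TGFβ can induce, rose with TGFβ in all 7 lines, and Axin2, a Wnt target, rose with Wnt3a in 6, but not in dm/- cells (log2FC 0.05). Of the other Wnt3a checks listed, Notum was called higher in D164A/fl cells alone (3.36 ± 0.78) and Nkd1 did not pass the filter. The 2 untreated dm/fl samples of the Wnt3a experiment stood apart, since 52.0% of the tested genes and 19 of the 36 members differed by 2-fold or more between them, against a lowest value of 0.647% of genes among the 28 pairs. Replicate 1 of this pair correlated best with a ΔC/fl sample, and 54 of 56 samples with one of their own genotype. Counts that rest on this pair are given with and without its replicate 1. Other pairs differed in the members although their remaining genes were alike. In untreated D164A/fl cells of the TGFβ experiment 26 members were 2-fold or more apart, with all 36 higher in replicate 2, while 1.25% of all tested genes were so far apart. In untreated dm/fl cells of the same experiment 21 members were, with all 36 higher in replicate 1, against 1.33% of all genes, and in untreated fl/fl cells of the Wnt3a experiment 21 members were, against 3.42%. The interferon state thus varied between duplicates of 1 genotype and treatment, and whether such duplicates came from 1 line is not known.

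The level of the members differed between the lines before any treatment. Taken over the 36 members, the mean of log2(CPM + 1) in the 4 untreated samples per line was lowest in ΔC/- cells (1.72 to 2.45) and ΔC/fl cells (2.01 to 2.90), which overlapped each other. It ran from 3.12 to 3.20 in dm/- cells, from 3.26 to 3.96 in D164A/- cells, from 3.03 to 4.17 in fl/fl cells and from 3.44 to 5.23 in D164A/fl cells. The widest spread was in dm/fl cells, from 2.93 to 6.06. The untreated mean was highest in dm/fl cells for 20 members, in D164A/fl cells for 15 and in dm/- cells for 1, and it was lowest in ΔC/- cells for 18 members and in ΔC/fl cells for 9.

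**Figure D1:**
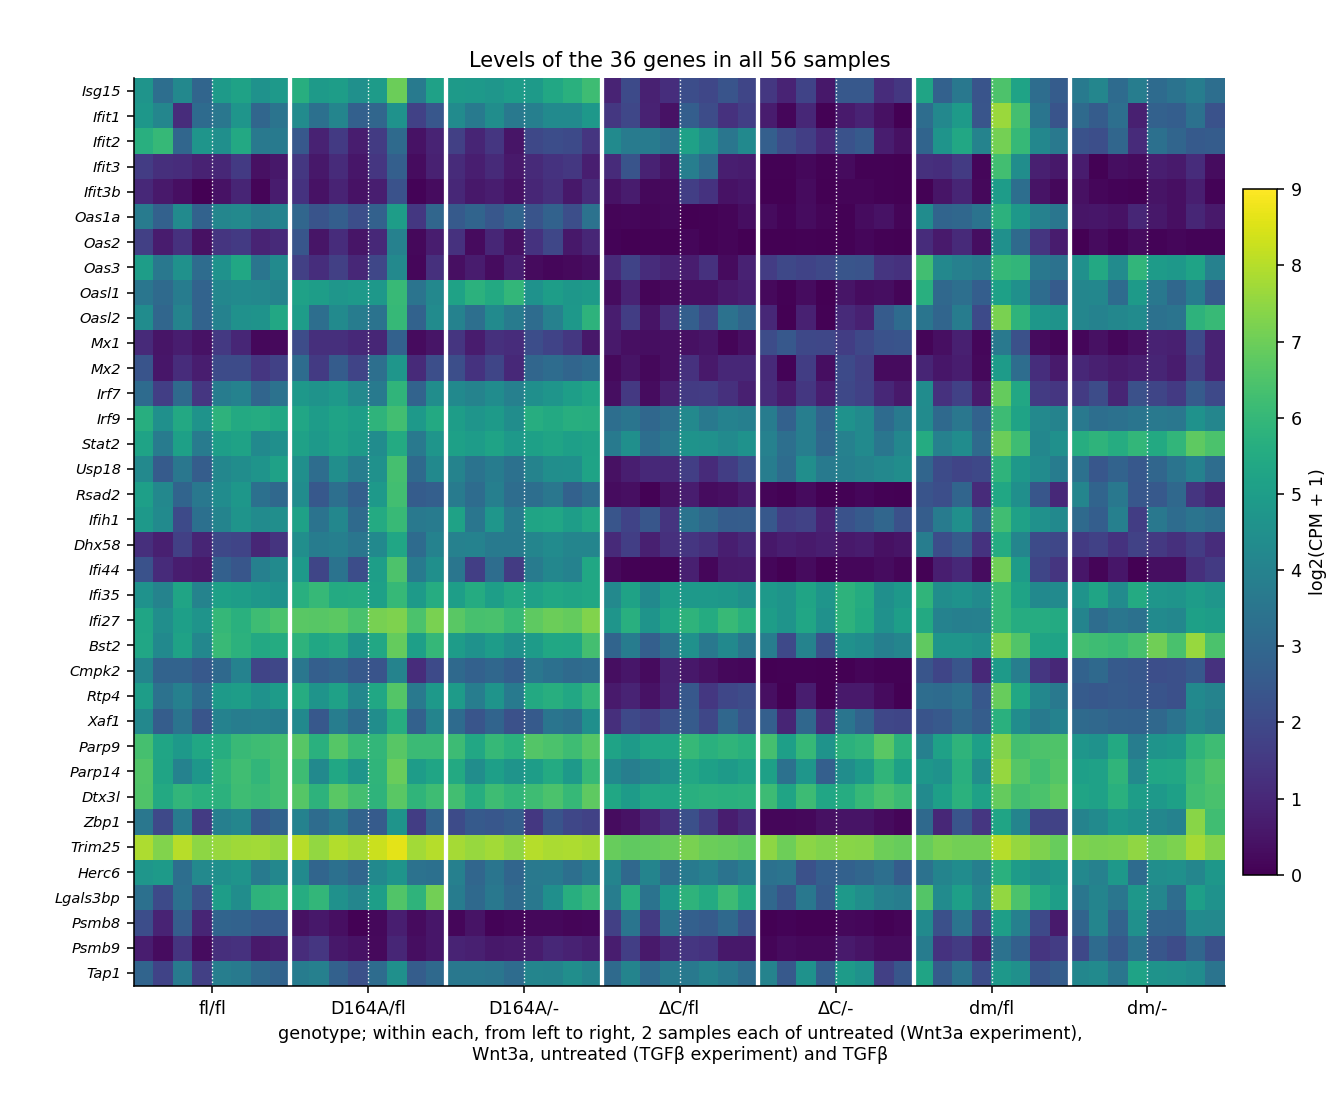
Level of each of the 36 genes (rows) in each of the 56 samples (columns), as log2(CPM + 1) by colour, with 8 samples per genotype. The ΔC/fl and ΔC/- columns are dark in most rows, and the 2 untreated dm/fl samples of the TGFβ experiment are bright in most.

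Per kilobase of the longest coding transcript, which allows a comparison between genes and was known for 35 members (not Mx1), the median level over all samples was highest for Ifi27 (46.9 CPM per kb), Bst2 (43.0) and Trim25 (31.2), the last a ubiquitin ligase of the RNA sensing pathway. It was lowest for Oas2 (0.0813) and Ifit3b (0.181). The most even member was Trim25, which ran from 108 to 400 CPM, and no call was made for it in any comparison. Some reads cannot be assigned with certainty: of all 75-base windows, 47.6% of those in Oas1a recur in Oas1g, 41.1% of those in Ifit3 recur in Ifit3b and 22.4% of those in Herc6 recur in another annotated gene. Dtx3l and Parp9 overlap on chromosome 16, so their counts may share reads.

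**Figure D2:**
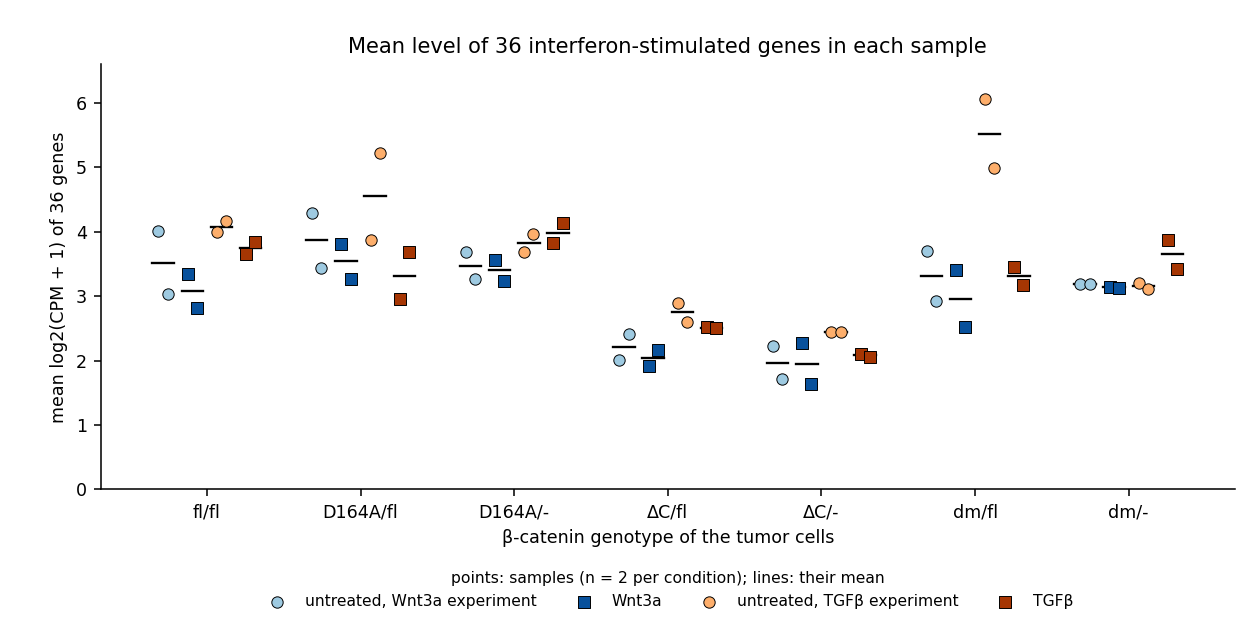
Mean of log2(CPM + 1) over the 36 genes (vertical axis) for each sample, by genotype and condition, with points for the 2 samples and a line for their mean. The untreated dm/fl samples of the TGFβ experiment, at 6.06 and 4.99, stand above the other 6 dm/fl samples, and no ΔC sample is above 2.90.

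Most members were lower in both ΔC lines than in fl/fl cells. For this comparison the untreated samples of both experiments were combined with equal weight (4 against 4), and a gene was called when its limma adjusted p was at most 0.05 and its change at least 2-fold. In ΔC/fl cells 21 members were lower and 2 higher, where 6.81% and 9.78% of all tested genes were called. In ΔC/- cells 22 were lower and 1 higher, against 10.9% and 12.1% of all tested genes. The median log2FC of the members was -1.29 and -1.51, and that of all tested genes 0.00 and 0.01. The 2 comparisons share the fl/fl samples. Within the Wnt3a experiment alone 16 members were lower in ΔC/fl cells (6.0% of all genes) and 16 in ΔC/- cells (6.70%), and within the TGFβ experiment alone 14 (6.64%) and 18 (10.2%). Leaving out any 1 sample left 18 to 20 members lower in ΔC/fl cells and 19 to 23 in ΔC/- cells. Markers of other cells differed between the same samples. Csf1r was at 51.2 to 72.2 CPM in untreated fl/fl cells, no more than 3.27 CPM in ΔC/fl cells and no more than 8.29 CPM in ΔC/- cells. The sum of 7 immune markers was 53.0 to 75.4, 4.41 to 13.2 and 19.4 to 80.7 CPM in these lines, and that of 5 fibroblast markers 5.58 to 13.0, 105 to 743 and 7.35 to 9.86 CPM. In ΔC/fl cells the fibroblast sum was carried by Pdgfra and Pdgfrb, while Col1a1 did not pass 7.60 CPM and Dcn 1.92 CPM. Their part in the difference of the members was not tested.

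Of the 36 members, Rsad2 had the largest decrease in both ΔC lines. This gene, also called viperin, an enzyme that makes a chain-terminating nucleotide, stood at 33.1, 17.6, 19.7 and 25.9 CPM in untreated fl/fl cells, where the first pair of values is from the Wnt3a experiment and the last from the TGFβ experiment, as in the rest of this comparison. In ΔC/fl cells it was at 0.227, 0.302, 0.640 and 0.222 CPM, and in ΔC/- cells at 0.0828, 0.0347, 0.0388 and 0.126 CPM. All 8 ΔC values lay below all 4 fl/fl values, and those of ΔC/- cells were near the floor of 3 reads. The log2FC was -4.19 ± 0.39 (SE, limma adjusted p = 1.4e-10) in ΔC/fl cells and -4.51 ± 0.39 (limma adjusted p = 2.2e-11) in ΔC/- cells, which on log2(CPM + 1) understates a change to a level this low. Its neighbour Cmpk2, a mitochondrial nucleotide kinase, differed by -3.04 ± 0.32 and -3.46 ± 0.32.

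Isg15, a ubiquitin-like protein, was at 24, 8.43, 28.9 and 35.3 CPM in untreated fl/fl cells. It was at 0.843, 3.06, 3.40 and 2.73 CPM in ΔC/fl cells and at 1.78, 0.867, 4.58 and 4.63 CPM in ΔC/- cells. The groups did not overlap, with log2FC of -2.76 ± 0.46 (limma adjusted p = 1.3e-05) and -2.65 ± 0.46 (limma adjusted p = 1.8e-05). Ifit1, which binds viral RNA caps, was at 26.1, 16.6, 11 and 25.0 CPM in fl/fl cells and at 0.621, 0.104, 0.582 and 0.881 CPM in ΔC/- cells. The difference was -3.69 ± 0.52 (limma adjusted p = 6.9e-07), and in ΔC/fl cells, at 1.75 to 5.52 CPM, -2.25 ± 0.52 (limma adjusted p = 9.8e-04). Oas1a, an activator of RNase L, was at 5.94 to 17.9 CPM in fl/fl cells and at no more than 0.220 CPM in either untreated ΔC line. Bst2, a surface protein that tethers budding virus, overlapped between ΔC and fl/fl cells although it was called (-1.66 ± 0.44 and -1.69 ± 0.44).

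Among the transcription factors, Irf7 and Irf9 were lower in both ΔC lines, with log2FC of -1.89 ± 0.50 and -1.70 ± 0.29 in ΔC/fl cells and -1.77 ± 0.50 and -1.49 ± 0.29 in ΔC/- cells. Stat2 was called in neither. It stood at 36.3, 12.4, 32.3 and 35.1 CPM in fl/fl cells, at 12.1, 21.5, 23.7 and 22.5 CPM in ΔC/fl cells and at 14.5, 8.74, 14.4 and 18.9 CPM in ΔC/- cells, with overlapping groups. The members that were higher in ΔC/fl cells were Lgals3bp, a secreted glycoprotein (1.52 ± 0.47, limma adjusted p = 0.0125), and Ifit3 (1.26 ± 0.33). Lgals3bp was at 13.2, 49.6, 57.0 and 44.5 CPM against 9.08, 3.07, 31.6 and 20.2 CPM, with overlap. In ΔC/- cells Mx1, a gene of the Mx GTPase family, was higher (1.04 ± 0.29, limma adjusted p = 0.00480). Its RNA level does not show whether a working protein is made. Mx1 was at 3.31, 4.51, 2.14 and 2.86 CPM in ΔC/- cells and at 0.422 to 1.81 CPM in fl/fl cells.

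**Figure D3:**
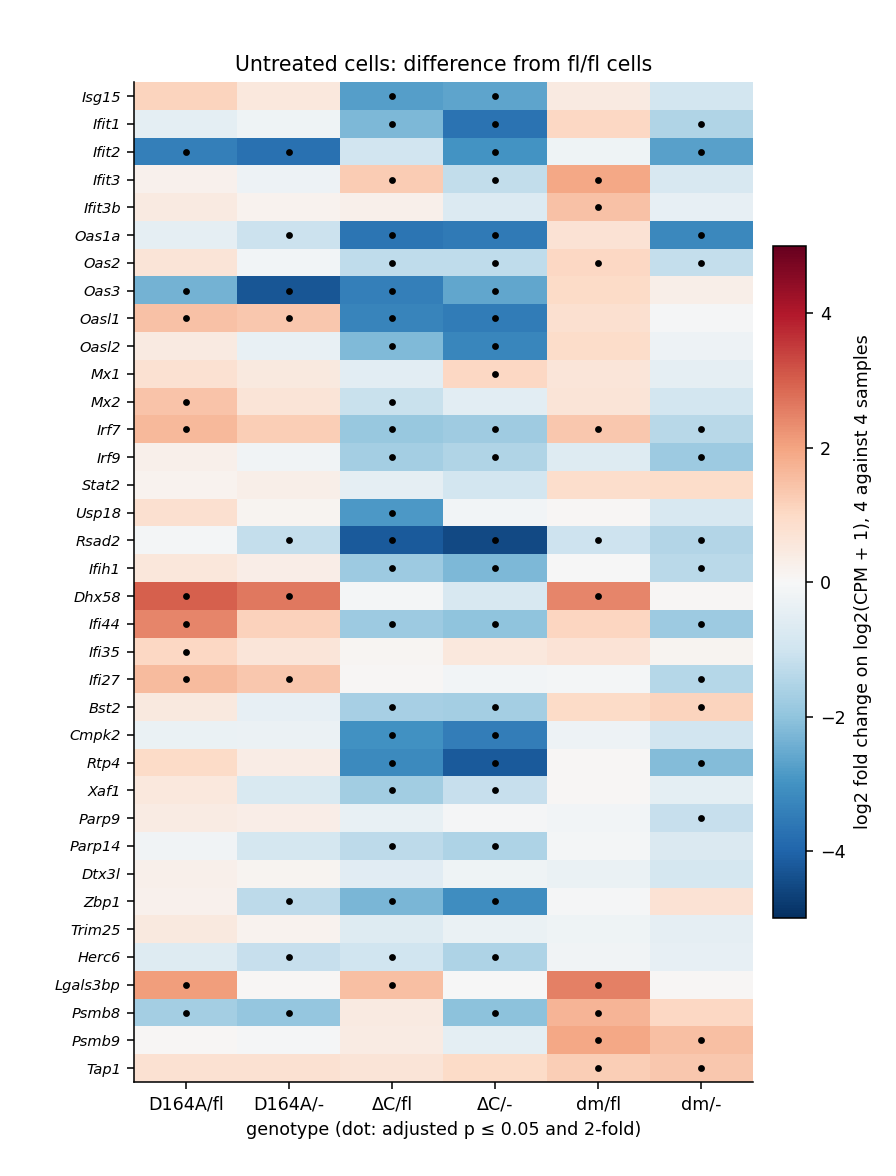
Difference of each of the 36 genes (rows) between untreated cells of each of 6 genotypes (columns) and untreated fl/fl cells, as log2 fold change by colour (blue lower, red higher), with a dot where the gene was called. The ΔC columns hold 21 and 22 dots on blue, and Dhx58 is red in both D164A columns and in dm/fl cells.

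In each D164A line some members were higher and others lower than in fl/fl cells. In D164A/fl cells 8 members were higher and 3 lower (8.46% and 7.71% of all genes), and in D164A/- cells 3 were higher and 7 lower (8.94% and 9.98%). As counts, the 3 lower members in D164A/fl cells and the 3 higher ones in D164A/- cells were near the background of all genes. The 2-sided pattern in each line is therefore not particular to the members as a set. With 1 sample left out the higher members were 5 to 13 in D164A/fl cells (13 without untreated D164A/fl replicate 1 of the TGFβ experiment, 5 without its replicate 2 or fl/fl replicate 2 of the Wnt3a experiment). In D164A/- cells 4 to 7 stayed lower, with 4 lower and 6 higher without fl/fl replicate 1 of the Wnt3a experiment. Dhx58 (LGP2), a helper of the RNA sensors, was at 1.32, 0.728, 2.86 and 2.58 CPM in fl/fl cells, at 20.9, 12.6, 18.1 and 38.8 CPM in D164A/fl cells and at 14.5, 14.9, 15.9 and 19.2 CPM in D164A/- cells. It was higher in both lines without overlap, by 3.00 ± 0.31 (limma adjusted p = 1.4e-09) and 2.64 ± 0.31 (limma adjusted p = 1.4e-08). Ifi27 and Oasl1 were higher in both as well, Ifi27 by 1.59 ± 0.26 and 1.34 ± 0.26 and Oasl1 by 1.48 ± 0.39 and 1.36 ± 0.39. In the other direction, Ifit2, an RNA-binding antiviral protein, was at 50.5, 63.8, 21.4 and 42.2 CPM in fl/fl cells, at 4.56, 0.829, 1.95 and 7.69 CPM in D164A/fl cells and at 2.26, 0.886, 2.86 and 3.35 CPM in D164A/- cells. It was lower by -3.40 ± 0.44 (limma adjusted p = 1.9e-07) and -3.73 ± 0.44 (limma adjusted p = 2.2e-08), while Ifit1, of the same family, was called in neither.

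Oas3, like Oas1a an activator of RNase L, was at 30.9, 11.2, 22.9 and 40.0 CPM in fl/fl cells and at 0.292, 0.591, 0.193 and 0.114 CPM in D164A/- cells, a difference of -4.27 ± 0.44 (limma adjusted p = 1.0e-09). In D164A/fl cells it was at 2.29, 1.26, 2.76 and 17.7 CPM, so that 1 sample overlapped the fl/fl range. Psmb8, an immunoproteasome subunit, was at 3.38, 0.843, 6.48 and 6.10 CPM in fl/fl cells and no higher than 0.675 CPM in either untreated D164A line, with log2FC of -1.70 ± 0.46 and -1.93 ± 0.46. It was also at 0 to 0.155 CPM in untreated ΔC/- cells, but at 2.30 to 10.2 CPM in ΔC/fl cells. Tap1, its neighbour, was called in none of these lines, with 8 to 21.8 CPM in D164A/fl cells, 11.2 to 16.2 CPM in D164A/- cells and 4.68 to 29.7 CPM in ΔC/- cells.

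The dm lines took opposite sides of the fl/fl cells in Irf7 (1.34 ± 0.50 in dm/fl cells and -1.37 ± 0.50 in dm/- cells) and Oas2 (1.02 ± 0.40 and -1.21 ± 0.40). Both dm/fl calls were lost, at 0.57 and 0.89, without replicate 1 of the untreated dm/fl pair of the Wnt3a experiment. In dm/fl cells 9 members were higher and 1 lower (12.1% and 8.96% of all genes), and in dm/- cells 3 were higher and 12 lower (9.30% and 8.62%). For dm/fl cells the count depended on the experiment. In the Wnt3a experiment alone 4 members were higher and 6 lower (16.9% and 15.8%), or 0 and 2 without replicate 1 of the pair that stood apart, and in that with TGFβ 13 were higher (9.71%) and 0 lower. Leaving out 1 sample gave 5 to 16 higher members, with 5 higher and 0 lower without replicate 1 of the pair that stood apart and 16 without its replicate 2, 11 and 12 without untreated replicate 2 of the TGFβ experiment or fl/fl replicate 1 of the Wnt3a experiment, and 6 without any 1 of the other samples. The 1 lower member was Rsad2, at 4.04, 3.47, 40.0 and 21.6 CPM, which overlapped the fl/fl cells (-1.02 ± 0.39, limma adjusted p = 0.0354). Lgals3bp was at 95.4, 19.2, 183 and 86.4 CPM in dm/fl cells and at 9.08, 3.07, 31.6 and 20.2 CPM in fl/fl cells (2.53 ± 0.47, limma adjusted p = 5.7e-05), with overlap between the groups. Psmb9, an immunoproteasome subunit like Psmb8, was higher without overlap, at 12.6, 1.48, 9.45 and 5.77 CPM against 0.662, 0.230, 1.29 and 1.46 CPM.

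In dm/- cells the calls within each experiment were 5 lower members (8.24%) among the samples of the Wnt3a experiment and 9 (7.16%) among the untreated samples run with TGFβ. Without replicate 1 of the fl/fl samples of the Wnt3a experiment the 12 lower members became 7, and without replicate 2 of the fl/fl samples of the TGFβ experiment also 7. The 3 higher members were 1 without any sample other than fl/fl replicate 1 of the Wnt3a experiment, without which they were 5. Oas1a was at 0.413, 0.474, 0.489 and 0.283 CPM in dm/- cells, below all fl/fl samples, by -3.23 ± 0.38 (limma adjusted p = 2.1e-08). Oas3 showed no such difference, with 21.8, 42.0, 29.6 and 27.0 CPM. The higher members were Psmb9 (1.52 ± 0.33, limma adjusted p = 4.7e-04), at 2.89, 7.79, 4.37 and 3.22 CPM, together with Tap1 (1.34 ± 0.48) and Bst2 (1.13 ± 0.44).

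Comparing each deleted line with its floxed counterpart asks what went with the loss of the floxed allele, although the lines could differ in other ways. In D164A/- against D164A/fl cells 4 members were lower (5.40% of all genes) and 0 higher. Lgals3bp was at 12.7, 7.51, 11.1 and 21.5 CPM against 46.4, 61.2, 31.7 and 92.7 CPM, a non-overlapping difference of -2.04 ± 0.47 (limma adjusted p = 0.00155). Oas3, Xaf1, a promoter of cell death, and Zbp1, a sensor of Z-form nucleic acid, were the other 3. The count was 2 to 9 when 1 sample was left out. It was 9 without replicate 1 and 2 without replicate 2 of the untreated D164A/fl pair of the TGFβ experiment, 2 without replicate 1 and 8 without replicate 2 of the D164A/fl pair of the other experiment, and 2 without D164A/- replicate 1 of the TGFβ experiment.

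In ΔC/- against ΔC/fl cells 2 members were higher (5.31% of all genes) and 5 lower (6.91%). Usp18 was at 13.2, 8.01, 13.7 and 15.4 CPM in ΔC/- cells and at 0.324, 0.689, 2.16 and 1.17 CPM in ΔC/fl cells, so the brake on the pathway was higher without overlap by 2.74 ± 0.39 (limma adjusted p = 1.4e-06) while Isg15 was low in both. Mx1 was higher by 1.57 ± 0.29. Psmb8 was at 0, 0.0694, 0.155 and 0.126 CPM against 2.30, 10.2, 5.76 and 5.05 CPM, a difference of -2.52 ± 0.46 (limma adjusted p = 7.6e-05). Ifit1, Ifit2, Ifit3 and Lgals3bp were the other lower members. Without ΔC/fl replicate 2 of the Wnt3a experiment, or ΔC/- replicate 2 of the TGFβ experiment, 3 were lower.

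In dm/- against dm/fl cells 18 members were lower (10.8% of all genes) and 0 higher, and the values differed by experiment. Within the TGFβ experiment 26 members were lower (10.1%), with all 36 differences below 0 and a median of -2.12. In the other experiment 3 were lower (8.77%) and 1 higher (7.78%), and the median was 0.01. The higher one was Zbp1, at 15.2 and 18.7 CPM against 7.35 and 0.984 CPM (2.13 ± 0.64, limma adjusted p = 0.0135). Oas1a was lower in both, at 0.413, 0.474, 0.489 and 0.283 CPM in dm/- cells against 20, 6.46, 54.4 and 26.7 CPM in dm/fl cells (-3.97 ± 0.38, limma adjusted p = 2.4e-10). Without replicate 1 of the untreated dm/fl pair of the Wnt3a experiment, 15 members were lower and 1 higher, and within that experiment 2 were lower and 3 higher. Markers of other cells differed as well. In the untreated cells of the TGFβ experiment the summed fibroblast markers were at 6.97 to 7.96 CPM in dm/- cells and 312 to 533 CPM in dm/fl cells, Csf1r at 25.9 and 22.8 against 336 and 431 CPM, and Cd68 at 62.2 and 55.0 against 3.36 and 5.07 CPM. Their part in the difference was not tested.

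The untreated cells of the 2 experiments were compared to see how far the untreated state of a line repeats. In dm/fl cells 24 members were higher in the untreated cells of the TGFβ experiment than in those of the Wnt3a experiment, where 2.11% of all genes were higher, and all 36 differences were above 0 with a median of 2.28. In D164A/fl cells 3 members were higher (2.51%), in ΔC/fl cells 1 (2.05%), and in fl/fl, D164A/-, ΔC/- and dm/- cells 0. Without replicate 1 of the untreated dm/fl samples of the TGFβ experiment the 24 became 4, and without either untreated sample of the Wnt3a experiment 20. In D164A/fl cells the 3 became 0 without replicate 2 of either untreated pair, 9 without replicate 1 of the Wnt3a experiment and 7 without that of the TGFβ experiment, and in ΔC/fl cells the 1 was lost without either replicate 1. With only the samples compared in the fit, no call was made between the experiments in any line. The difference in dm/fl cells was larger than that in fl/fl cells for Ifi44, Ifit3, Ifit3b and Ifit2 (4 members, 0.596% of all genes), and 2 members were left without replicate 1 of the untreated dm/fl pair of the Wnt3a experiment.

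With TGFβ most members fell in dm/fl cells, and 0 to 6 in the other lines. In dm/fl cells 23 members fell and 0 rose, where 6.88% of all genes fell and 3.45% rose. The median log2FC was -2.17, and 35 of 36 members were below 0. In D164A/fl cells 6 members fell and 0 rose (0.880% and 2.50%), with a median of -1.33. In fl/fl cells 1 fell and 0 rose (2.94% and 3.31%), in ΔC/fl cells 1 and 0 (4.49% and 3.24%), in ΔC/- cells 1 and 0 (3.69% and 2.86%) and in D164A/- cells 0 and 0 (1.36% and 2.70%). In dm/- cells alone members rose, 4 of them, and 0 fell (3.68% and 2.44%). Fewer cells of one kind and less RNA per cell cannot be told apart in these bulk samples.

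**Figure D4:**
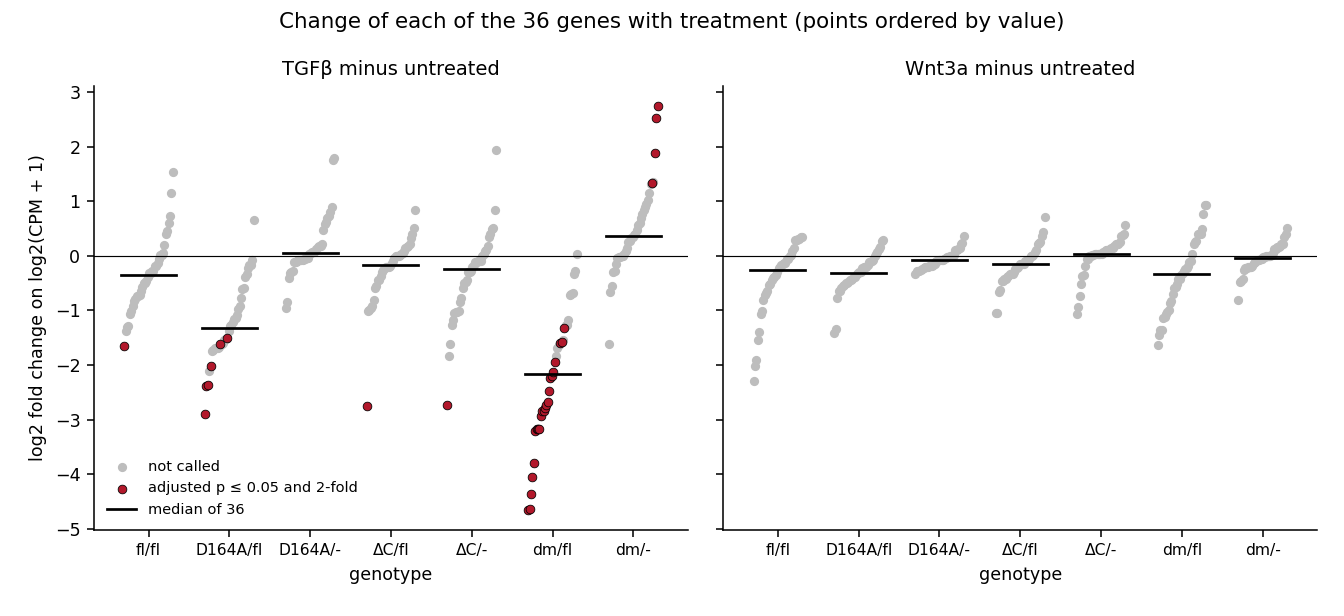
Log2 fold change of each of the 36 genes with TGFβ (left) and Wnt3a (right) by genotype, each point a gene, red where called, with a line at the median of the 36. With TGFβ the dm/fl median is -2.17 and that of dm/- cells 0.37, and with Wnt3a no point is red.

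Ifit3, a further antiviral member of the Ifit family, was at 76.5 and 20.3 CPM in untreated cells and at 0.748 and 0.493 CPM with TGFβ, without overlap (-4.65 ± 0.47, limma adjusted p = 3.8e-09). Ifit1 went from 198 and 78.6 CPM to 10.3 and 4.01 CPM (-4.06 ± 0.74, limma adjusted p = 1.2e-04). The untreated dm/fl cells of the Wnt3a experiment had 1.36 and 1.26 CPM of Ifit3 and 8.35 and 17.5 CPM of Ifit1, so the untreated pair of the TGFβ experiment stood above all other dm/fl samples for both genes, and the TGFβ-treated values of Ifit1 overlapped those untreated cells. Irf7, the factor that amplifies interferon production, had 116 and 40.9 CPM untreated, 1.99 and 1.68 CPM with TGFβ (-4.63 ± 0.71, limma adjusted p = 1.0e-05) and 19.8 and 1.45 CPM in the untreated Wnt3a experiment samples.

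Isg15 fell from 89.6 and 36 CPM to 8.26 and 5.19 CPM (-2.93 ± 0.65, limma adjusted p = 0.00140) and Stat2 from 124 and 72.5 CPM to 16.9 and 22.1 CPM (-2.24 ± 0.50, limma adjusted p = 0.00145). Both groups were clear of each other. In the antigen presentation group Psmb8 fell from 32 and 14.1 CPM to 2.96 and 0.559 CPM (-3.17 ± 0.65, limma adjusted p = 6.2e-04), and Tap1 from 27.0 and 21.9 CPM to 4.27 and 5.32 CPM (-2.13 ± 0.68, limma adjusted p = 0.0326). Usp18 and Bst2 were not called. Usp18 was at 57.2 and 26.5 CPM untreated and at 19.3 and 12.6 CPM with TGFβ, and Bst2 at 148 and 92.3 against 37.3 and 36.3 CPM, so that for both the treated values were lower without overlap but did not pass the test.

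When TGFβ-treated dm/fl cells were instead compared with the untreated dm/fl cells of the Wnt3a experiment, the set no longer moved to one side. In that comparison, added after the data were seen, 4 members were higher (7.59% of all genes) and 2 lower (7.15%), with a median of -0.02. Dtx3l, Parp9, Parp14 and Usp18 were the higher ones (1.92 ± 0.37, 1.96 ± 0.50, 1.77 ± 0.63 and 1.56 ± 0.55) and Psmb8 and Oas3 the lower ones (-1.94 ± 0.65 and -1.74 ± 0.63). Without replicate 1 of that untreated pair 2 were higher and 0 lower, with a median of 0.38. Experiment and treatment cannot be told apart in this comparison. In the comparison within the TGFβ experiment, 11 members fell without replicate 1 of the untreated pair, 16 without replicate 2 of the treated pair, and 20 and 23 without the remaining samples.

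Other genes moved in the same dm/fl samples. Of the fibroblast markers, Pdgfra was at 302 and 163 CPM in the untreated pair of the TGFβ experiment, at 86.9 and 54.1 CPM with TGFβ and at 40.4 and 73.7 CPM in the untreated Wnt3a experiment samples, and Pdgfrb at 227 and 145, 28.2 and 26.3, and 166 and 45.7 CPM. The sum of the 5 fibroblast markers was 312 to 533 CPM, 100 to 128 CPM and 120 to 213 CPM in these groups, although Dcn did not pass 2.14 CPM in them. The sum of the 7 immune markers, nearly all of it Csf1r, was 340 to 436, 427 to 449 and 292 to 533 CPM, with Ptprc at no more than 0.0922 CPM. The sum of the 6 epithelial markers was 1436 to 1991, 1991 to 2337 and 2123 to 5969 CPM. The sum of 3 endothelial markers, nearly all of it Cdh5, was 0.0932 to 0.191, 34.1 to 35.1 and 0.184 to 0.363 CPM. The part of these in the fall of the members was not tested.

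**Figure D5:**
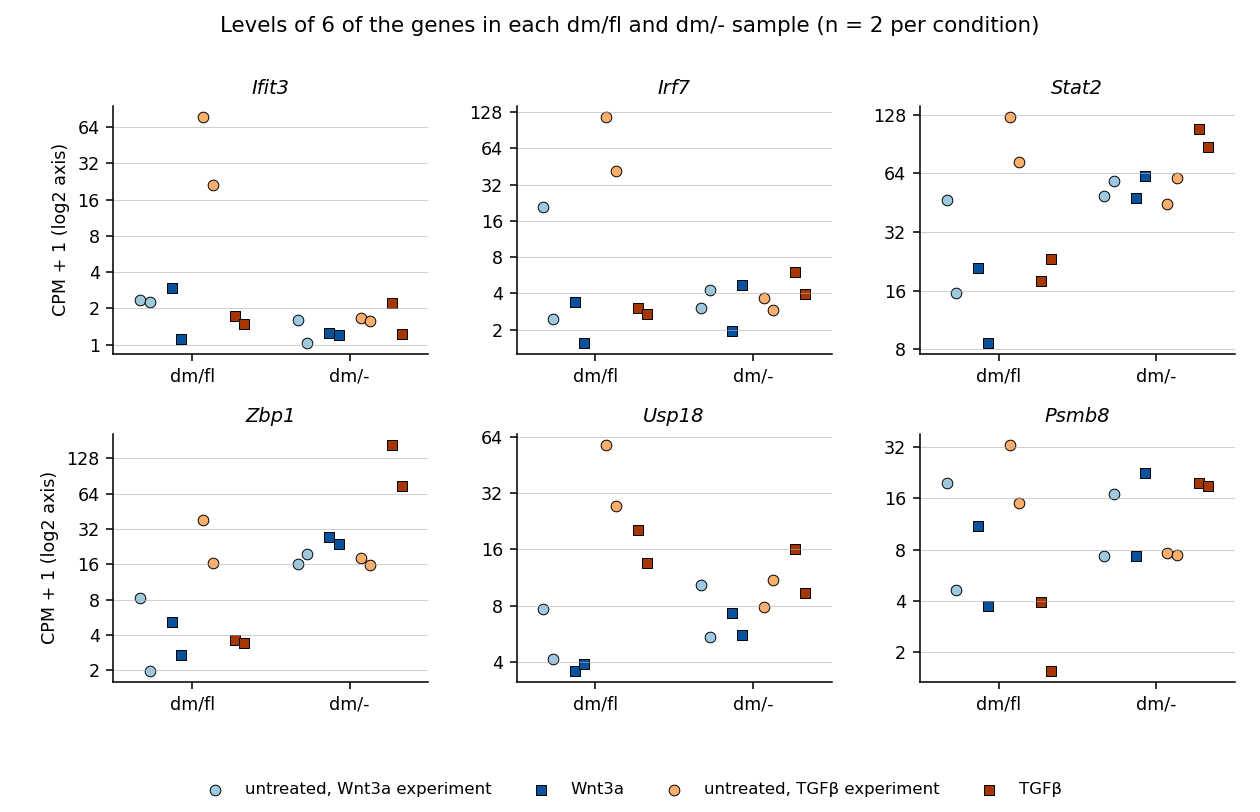
CPM + 1 on a log2 axis for 6 of the genes in each sample of dm/fl and dm/- cells, 2 samples per condition. In dm/fl cells the untreated pair of the TGFβ experiment is highest for Ifit3, Irf7, Stat2, Zbp1 and Usp18, while for Psmb8 an untreated sample of the Wnt3a experiment lies between the pair, and in dm/- cells the TGFβ-treated pair is highest for Zbp1 and Stat2.

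In D164A/fl cells the 6 members that fell with TGFβ were Rsad2, Cmpk2, Mx1, Mx2, Oas2 and Oas3. Rsad2 was at 27.7 and 76.1 CPM untreated and at 5.08 and 5.67 CPM with TGFβ, without overlap (-2.89 ± 0.55, limma adjusted p = 7.9e-04). The untreated replicate 2 was the higher one for all 8 members described by role, with Isg15 at 125 against 29.6 CPM and Irf7 at 58.1 against 12 CPM. Without that sample 0 members were called and without replicate 1 of the TGFβ-treated pair 1, whereas without replicate 1 of the untreated pair 11 were. In the untreated samples of the Wnt3a experiment Rsad2 was at 20 and 4.54 CPM, both below the untreated pair of the TGFβ experiment.

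In dm/- cells the 4 members that rose with TGFβ were Zbp1, Oasl2, Rtp4 and Dtx3l. Zbp1 was at 17.0 and 14.7 CPM untreated and at 166 and 74.0 CPM with TGFβ (2.74 ± 0.64, limma adjusted p = 0.00420). The rise was also clear of the untreated samples of the Wnt3a experiment, at 15.2 and 18.7 CPM, and of the Wnt3a-treated ones, at 26.6 and 22.9 CPM. Oasl2, a protein like the Oas enzymes, was at 9.26 and 10.1 CPM untreated and at 56.1 and 65.7 CPM with TGFβ (2.53 ± 0.68, limma adjusted p = 0.0156). Stat2, at 43.5 and 59.7 against 107 and 86.9 CPM, was not called. Leaving out any 1 of the 4 samples left 0 or 1 of the calls. The summed fibroblast markers went from 6.97 to 7.96 CPM untreated to 36.7 to 126 CPM with TGFβ in these cells, carried by Pdgfrb at 17.0 and 99.4 CPM, and their part in the rise was not tested.

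The single calls in the other lines were of different members. Cmpk2 fell in fl/fl cells from 7.37 and 14.9 CPM to 2.57 and 2.76 CPM (-1.65 ± 0.46, limma adjusted p = 0.0178), and that call was lost in 3 of 4 fits with a sample left out. Ifit3 fell in ΔC/fl cells from 13.4 and 7.43 CPM to 0.681 and 0.596 CPM (-2.75 ± 0.47, limma adjusted p = 7.2e-05). Here too the untreated cells of the Wnt3a experiment were lower, at 1.17 and 4.01 CPM. Tap1 fell in ΔC/- cells from 29.7 and 23.3 CPM to 2.24 and 4.27 CPM (-2.73 ± 0.68, limma adjusted p = 0.00776), and the untreated values of the other experiment, 15.1 and 4.68 CPM, lay between. In D164A/- cells Isg15 was at 29.2 and 41.5 CPM untreated and at 51.5 and 73.1 CPM with TGFβ, Irf7 at 21.1 and 24.8 against 31.7 and 37.7 CPM, and Usp18 at 15.1 and 20.8 against 21.1 and 36.7 CPM. None of these passed the test.

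Whether a line responded to TGFβ differently from fl/fl cells was tested as the difference between the responses. In dm/fl cells 6 members had a response lower than in fl/fl cells (3.16% of all genes), namely Ifi44 (-5.89 ± 0.99), Irf7 (-3.91 ± 1.01), Ifit3 (-3.86 ± 0.66), Ifit3b (-3.52 ± 0.55), Mx2 (-2.68 ± 0.79) and Dhx58 (-2.11 ± 0.62). All 36 differences were below 0, with a median of -1.53. In dm/- cells 1 member had a higher response (1.63%), Zbp1, by 4.04 ± 0.90 (limma adjusted p = 0.00567), where in fl/fl cells it was at 13.8 and 16.5 CPM untreated and at 4.92 and 6.22 CPM with TGFβ, which was not called. Leaving out 1 sample left 3 to 9 members in dm/fl cells, with 9 without untreated dm/fl replicate 2 and 3 without its replicate 1, without treated replicate 2, or without fl/fl untreated replicate 1 or treated replicate 2. In dm/- cells the call of Zbp1 was lost without treated replicate 1. In the D164A and ΔC lines no member was called, which does not show that the responses were equal. The lowest limma adjusted p there was 0.0625, for Ifi44 in D164A/fl cells (-3.22 ± 0.99). The share of all genes called in these lines is not given here.

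Wnt3a changed no member in any line by the same rule. All genes together were called higher and lower at 0.153% and 0.225% in fl/fl cells, 2.85% and 1.30% in D164A/fl cells, 0.407% and 0.247% in D164A/- cells, 0.131% and 0.0945% in ΔC/fl cells, 0.0291% and 0.0218% in ΔC/- cells, 0.342% and 0.233% in dm/fl cells and 0% and 0% in dm/- cells. With so few calls among all genes, a count of 0 of 36 members is near the background in all 7 lines. This includes D164A/fl cells, where 392 genes were called higher and 179 lower. Of 252 changes, 15 had an unadjusted limma p under 0.05, with 22 by edgeR and 29 by DESeq2, and none passed adjustment by any of the 3 tools. Isg15 was at 24 and 8.43 CPM untreated and at 17.3 and 6.63 CPM with Wnt3a in fl/fl cells, at 48.8 and 29.3 against 31.4 and 22.1 CPM in D164A/fl cells, and at 11.9 and 16.5 against 7.84 and 13.0 CPM in dm/- cells, with overlap in each. The 10 pairs of replicates that were furthest apart over all genes were all of the Wnt3a experiment. In no line was the response of a member to Wnt3a called different from that in fl/fl cells. The lowest limma adjusted p was 0.0884, for Ifit2 in dm/fl cells (2.94 ± 0.89). The share of all genes called in this comparison is not given here. Without replicate 2 of the untreated dm/fl pair, 13 members fell and 3 rose in that line, which then rests on the sample that stood apart, and without replicate 2 of the treated fl/fl pair 3 members fell in that line.

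The other genes of the pathway were read from lists chosen with earlier results of these data known. Of 19 interferon genes listed, 9 had a row in the table and 1, Ifne, passed the filter. Ifnb1 did not pass 0.218 CPM, a value reached in untreated dm/fl cells of the TGFβ experiment, and it was at 0 in 40 samples. The receptor chains Ifnar1 (64.4 to 201 CPM) and Ifnar2 (16.4 to 59.1 CPM) were present in all 56 samples. None of the 9 receptors and kinases changed with TGFβ in the dm lines.

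Among the genes of signaling and transcription, Nlrc5, which drives the genes of MHC class I, fell with TGFβ in dm/fl cells. It went from 14.6 and 6.6 CPM to 0.841 and 0.493 CPM, without overlap (-2.71 ± 0.44, limma adjusted p = 2.5e-05), and in the untreated cells of the Wnt3a experiment it was at 3.95 and 0.861 CPM. Of 17 genes of nucleic acid sensing, Tmem173 (STING) and Rnaseh2b were lower than in fl/fl cells in all 6 lines. Of all tested genes 6.81% to 10.9% were lower, depending on the line, and the 6 comparisons share the same untreated fl/fl samples. Tmem173 stood at 103 to 144 CPM in untreated fl/fl cells and at 10.3 to 63.0 CPM in the other lines. Mb21d1 (cGAS), which makes the messenger that STING reads, was lower in ΔC/- cells (-2.89 ± 0.38), at 4.35, 5.93, 2.45 and 2.36 CPM against 19.9 to 45.5 CPM. The fl/fl cells differed from the others in 1 further respect near the interferon gene cluster on chromosome 4, where Mtap was at 0.0403 to 1.16 CPM in all 8 of their samples and at 125 to 758 CPM in every sample of the other lines.

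A further 47 interferon-stimulated genes outside the 36 were tested. With TGFβ 24 of them fell in dm/fl cells and 7 rose in dm/- cells, against 6.88% and 3.68% of all genes, among the latter the GTPases Tgtp1 (3.14 ± 0.31) and Ifi47 (3.02 ± 0.41). In ΔC/- cells 19 were lower than in fl/fl cells and 3 higher, in ΔC/fl cells 8 and 6, against 10.9% and 12.1% of all genes in ΔC/- cells and 6.81% and 9.78% in ΔC/fl cells. Their median log2FC was -0.61 and -0.16 in these lines, against -1.51 and -1.29 for the members. Gbp2, a GTPase of the interferon gamma response, was at 0.659 to 2.17 CPM in untreated ΔC/- cells and at 13.5 to 35.5 CPM in ΔC/fl cells (-3.33 ± 0.34). Of 13 genes of the MHC class I pathway, 1 fell with TGFβ in dm/fl cells, Tap2, and 4 were lower in ΔC/- cells than in fl/fl cells, with the same shares of all genes as above.

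The members did not move as one block. Over the 28 condition means, which share libraries and lines, the median correlation of log2(CPM + 1) over 630 pairs of members was 0.48 and 56 pairs were below 0. Ifi44 was most like the rest (median r of 0.68 with the other members), followed by Irf9, Cmpk2, Irf7 and Rtp4 (0.67). Psmb8 (0.08) and Ifit2 (0.10) were least like them. Rsad2 and Cmpk2, 12.7 kb apart, had r = 0.94, and the overlapping Dtx3l and Parp9 0.93. Closeness did not go with likeness in every case, since Oas2 and Oas3, 3.21 kb apart, had 0.30 and Tap1 and Psmb8, 0.970 kb apart, 0.32. Psmb9 and Tap1, which share the stretch between their starts, had 0.55. Split by the promoter motif, 7 of the 10 members with it and 10 of the 16 without it fell with TGFβ in dm/fl cells, with median log2FC of -2.71 and -1.76. In untreated ΔC/- cells 8 of 10 and 10 of 16 were lower than in fl/fl cells, with medians of -2.41 and -1.52.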

How the data were processed

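RNA was sequenced as stranded poly(A) libraries (single-end reads). According to the methods and the labels, the authors aligned reads to mm10 with STAR, kept unique hits, counted them on RefSeq exons with QuasR and deposited a normalized signal per gene, named CPM here: counts divided by a scaled library size, so the columns sum to 0.88 to 1.24 M. The step of 1 read was found in each column and 100.0% of values were whole reads within 0.001 read, which gave the depths and the count models.

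Genes that reached 1 CPM in 2 or more samples were tested with limma 3.58.1 (R 4.3.3) on log2(CPM + 1), with 28 condition means over all 56 samples. A call needed a Benjamini-Hochberg adjusted p of at most 0.05 over all tested genes and a 2-fold change. Fold changes on this scale understate those of low genes, and intervals cover the spread between duplicates only. edgeR 4.0.16 (quasi-likelihood) called 33 member changes with TGFβ where limma called 36. The members and lists were chosen with earlier results of these data known. Values by sample are given for 8 members that stand for roles and, per comparison and line, for the called member with the largest increase and decrease. Genes of other lists are given by counts and up to 3 called genes. Those few named beyond this rule were chosen after their values were seen. Alternatives were another pseudocount, no filter, median-of-ratios scaling, edgeR, DESeq2 1.42.0, only the samples compared, replicate number as a block, removal of the GC trend, other thresholds, each experiment alone and leaving out each sample. Scripts were tested on simulated data. Some genes of these lists are not reported here.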

Additional observations from a re-analysis of the deposited data

Results flagged for a closer look

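The response to TGFβ differed from that of fl/fl cells, by the limma test of the difference between responses, for 6 members in dm/fl cells. The differences on the log2 scale were -5.89 for Ifi44, -3.91 for Irf7, -3.86 for Ifit3, -3.52 for Ifit3b, -2.68 for Mx2 and -2.11 for Dhx58. In dm/- cells Zbp1 differed in the other direction, by 4.04. The difference between the untreated cells of the 2 experiments was larger in dm/fl than in fl/fl cells for Ifi44 (4.70), Ifit3 (4.27), Ifit3b (3.96) and Ifit2 (3.68), a test added after the data were seen. Both sets of differences use the same untreated dm/fl and fl/fl samples of the TGFβ experiment and are not separate evidence. Ifit3 and Ifit3b share part of their sequence, so their values are not separate either.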

How the results depend on the processing

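Counts below are of member changes called over all lines. With TGFβ there were 36, 77 at an unadjusted p with 1.5-fold, and 20 against the untreated cells of the Wnt3a experiment (added after the data were seen). With Wnt3a there were 0, and 15 at an unadjusted p with 1.5-fold. Deleted against floxed lines gave 29, 18 with only the samples compared and 10 within the Wnt3a experiment. Differences in response to TGFβ gave 7, with 39 at an unadjusted p, 4 with a pseudocount of 0.1, 2 by edgeR and 12 with only the samples compared, and differences in response to Wnt3a gave 0 and, at an unadjusted p, 11. Between the experiments there were 28, with 61 at an unadjusted p, 10 by edgeR, 0 with only the samples compared, and 4 beyond the difference in fl/fl cells. The cause of these shifts was not tested.

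Same-numbered samples did not deviate together in every line (r from -0.20 to 0.93 for the responses), so the numbers were not taken as pairs. With the replicate block the counts were 75 for TGFβ (29 lower members in dm/fl cells, 20 in D164A/fl cells and 8 in ΔC/- cells, against 23, 6 and 1 without it), 11 for Wnt3a, 34 and 9 for the differences in response to each, and 94 for the lines against fl/fl cells (92 without it). With the block and the GC trend removed they were 88, 7, 61 and 4. Crossed pairing in ΔC/- cells, added after the data were seen, gave 74 for TGFβ.

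Leaving out 1 sample gave 28 to 45 calls with TGFβ, 0 to 16 with Wnt3a, 72 to 100 against fl/fl cells, 25 to 35 for deleted against floxed lines, 4 to 12 and 0 to 12 for the differences in response, and 8 to 34 between experiments. The lowest counts of 28, 25 and 8 came without untreated dm/fl replicate 1 of the TGFβ experiment, the 45 without that of the Wnt3a experiment, and the 16, the 100 and the 12 for Wnt3a without its replicate 2. The 35, the 34 and the other 12 came without an untreated D164A/fl replicate 1. Of 192 called changes, 0 reversed and 103 lost their call under at least 1 of the other settings or fits with a sample left out. Each experiment alone was not part of that count, and some called changes did not keep their sign there. In dm/- against dm/fl cells the log2FC of Mx1 was -1.04 over both experiments and 0.02 within the Wnt3a experiment. Change with Wnt3a followed GC content across genes in some lines (rho 0.74 in fl/fl cells and -0.75 in dm/fl cells). No member was called there with or without the GC trend removed, so this count cannot show a part of GC content. Levels below 0.146 CPM can rest on 3 reads or fewer.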
